A study of Homo sapiens with 12 samples.

Results

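The genes described here are 48 genes of mitosis and of the G2/M transition, among 45478 genes in a table of raw RNA-seq counts. They were taken by gene symbol from a list of mitotic cyclins, kinases, spindle and kinetochore genes, by a rule that uses no measured value, and all 48 passed the filter on low counts. The cells were 786-O and A498, human clear cell renal cell carcinoma (ccRCC) lines deficient in the tumour suppressor VHL, and a Sunitinib-resistant line of each, which had been grown in sunitinib, an inhibitor of receptor tyrosine kinases, until it resisted the drug. They are called resistant 786-O and resistant A498 here, and the names 786-O and A498 alone stand for the parental lines. Resistant 786-O came from selection at 4 μM and resistant A498 at 2 μM, for 4 months or over 20 passages, and the treatment label reads none for all 4 groups, although each title also holds the letters veh in a bracketed code that the labels do not explain. Each group had 3 replicate libraries, each parental line had 1 resistant line, which the study calls a clone, and separate cultures for the replicates are not stated, so that p-values measure the spread between these libraries, which may be technical. The question addressed was how the level of these genes differed between each resistant line and its parental line, and between the lines.

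A cell enters mitosis when CDK1, bound to cyclin A or cyclin B, is switched on by CDC25 phosphatases. Aurora and Polo-like kinases then build the spindle, the kinetochore ties each chromosome to it, and a checkpoint holds the anaphase-promoting complex (APC/C) in check until every kinetochore is attached. Transcripts of most of these genes are low in G1 and reach their peak in G2 and mitosis. In resting cells the DREAM complex represses them, and in cycling cells its MuvB core joins B-MYB (MYBL2) and FOXM1 to activate them, mainly through a short promoter element called the CHR and through CCAAT boxes bound by NF-Y. In tumours, the same genes are the core of the usual proliferation signatures.

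Total counts per library lay between 20042519 and 47972092. The kidney marker PAX8 was at a mean of 199.7 to 312 CPM (counts scaled to the same normalized library size) in the groups, and VIM at 3059 to 6814, whereas the ccRCC markers CA9 and NDUFA4L2 did not exceed 1.29 as a group mean. Among 12 T cell markers, CD2, CD28 and GZMB had no count in any library, CD3D, CD3E and CD3G had at most 1, and the summed level was 0.0465 to 1.12 CPM. CD8A and CD4 had the most, with up to 26 and 21 counts in a library. CD8A was at a mean of 0.51 CPM in resistant 786-O, 0.31 in resistant A498, 0.11 in 786-O and 0.0 in A498. It was the 1 of the 12 markers that passed the filter on low counts, with its highest means in the resistant groups. No p-value is read from it, since a gene can pass that filter through the groups where it is high. Libraries stood apart in 2 respects. First, 62 genes were at 10 CPM or more in A498 and had no more than 3 counts in every 786-O library, and their level relative to A498 had a median of 0.362% in resistant A498 and 0.238% in resistant 786-O. A further 33 genes showed the reverse, and relative to 786-O their median level was 94.6% in resistant A498 and 96.4% in resistant 786-O. The libraries labelled resistant A498 thus lacked most transcripts that A498 had and 786-O did not, and carried those that 786-O had and A498 did not, and values of resistant A498 against 786-O are therefore given for the same genes and lists as those against A498. Second, replicate 2 of resistant 786-O stood apart from replicates 1 and 3 in many of the genes described here, and the values without it are given for each group of genes. Each group also has a batch label of its own, so batch and group cannot be told apart.

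Promoter sequences from RefSeq (GRCh38.p14, 250 bases before to 50 after the first listed start) were found for 41 of the 48 genes, and not for AURKA, TPX2, BIRC5, BUB3, TTK, UBE2C and FOXM1. The core CHR sequence TTTGAA was present on the gene's strand in 25 of the 41 (61.0%), against 8.46% of 27305 promoters of the same length. TTTGAA on either strand or the variant TTCGAA, which reads the same on both, was present in 29 (70.7%, against 16.6%). The CCAAT box, counted on either strand (CCAAT or ATTGG), was present in 31 (75.6%, against 35.7%), and 25 promoters held both kinds of element (61.0%, against 6.58%). Overlapping matches were counted separately, and a match of letters is not a measured binding site. Among 26 promoters of 30 genes of the G1/S transition, none held TTTGAA on the gene's strand, whereas 65.4% held a CCAAT box. Among 39 promoters of other mitotic genes, 71.8% held TTTGAA on either strand or TTCGAA, 66.7% a CCAAT box and 53.8% both. There, 25.6% held TTTGAA on the gene's strand and 35.9% on the other strand. For condensin and cohesin genes (16 promoters), 43.8% held TTTGAA on either strand, 43.8% a CCAAT box and 12.5% both.

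The promoters of 6 genes are printed from 200 bases before to 20 bases after the start, with the CHR core and the CCAAT box, each on either strand, in capitals. CCNB2 (cyclin B2, chr15:59104946-59105165, plus strand), PLK1 (chr16:23678689-23678908, plus strand) and CDC20 (chr1:43358781-43359000, plus strand) show the common layout, in which TTTGAA lies close to the start with 1 or more CCAAT boxes beside or before it. KIF23 (chr15:69414149-69414368, plus strand) is shown because it was the 1 gene of the 48 called higher in resistant 786-O by edgeR's test. KIF20A (chr5:138178912-138179131, plus strand) and CCNB1 (cyclin B1, chr5:69166950-69167169, plus strand) are shown because they had the largest falls of their comparisons and hold CCAAT boxes without TTTGAA in this window.
CCNB2: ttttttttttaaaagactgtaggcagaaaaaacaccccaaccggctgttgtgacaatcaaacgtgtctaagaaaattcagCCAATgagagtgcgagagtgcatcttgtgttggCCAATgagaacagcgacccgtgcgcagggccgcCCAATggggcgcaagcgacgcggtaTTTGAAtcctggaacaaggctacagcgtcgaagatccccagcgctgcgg
PLK1: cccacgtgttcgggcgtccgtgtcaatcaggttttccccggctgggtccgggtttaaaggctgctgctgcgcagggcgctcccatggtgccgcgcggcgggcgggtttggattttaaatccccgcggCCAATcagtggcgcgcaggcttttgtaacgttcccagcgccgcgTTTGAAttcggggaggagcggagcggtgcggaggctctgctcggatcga
CDC20: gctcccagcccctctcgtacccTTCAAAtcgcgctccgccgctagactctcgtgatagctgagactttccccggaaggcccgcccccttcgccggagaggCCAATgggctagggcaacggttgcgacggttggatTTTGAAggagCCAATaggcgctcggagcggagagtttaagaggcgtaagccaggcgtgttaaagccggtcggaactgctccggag
KIF23: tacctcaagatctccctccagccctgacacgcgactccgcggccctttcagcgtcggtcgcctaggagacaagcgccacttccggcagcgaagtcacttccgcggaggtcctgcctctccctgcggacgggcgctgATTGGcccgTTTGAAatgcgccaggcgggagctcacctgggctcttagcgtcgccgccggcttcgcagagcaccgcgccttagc
KIF20A: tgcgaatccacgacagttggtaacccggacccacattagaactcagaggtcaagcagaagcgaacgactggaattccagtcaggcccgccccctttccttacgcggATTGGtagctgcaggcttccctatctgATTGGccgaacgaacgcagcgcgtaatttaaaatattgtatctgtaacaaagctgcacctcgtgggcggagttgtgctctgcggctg
CCNB1: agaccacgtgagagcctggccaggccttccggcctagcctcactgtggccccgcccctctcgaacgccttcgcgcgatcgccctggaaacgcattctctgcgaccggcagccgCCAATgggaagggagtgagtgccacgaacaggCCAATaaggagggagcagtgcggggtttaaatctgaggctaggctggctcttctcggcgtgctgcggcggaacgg
The TTTGAA match began at position -29 in CCNB2 and PLK1, -65 in CDC20 and -55 in KIF23, counting -1 as the base before the start. Of the 30 matches on the gene's strand in all 41 promoters, 17 lay in the 50 bases before the start, with a median position of -22. Over all promoters, 359 of 2499 such matches lay there, with a median position of -123. The 66 CCAAT boxes had a median position of -74.

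**Figure D1:**
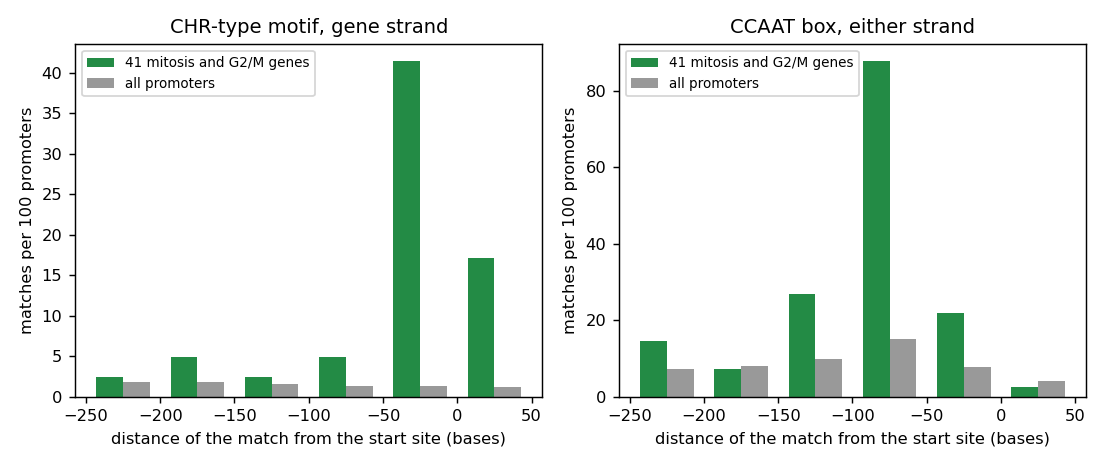
Matches per 100 promoters in 50-base bins by distance from the start site, for the 41 promoters of the mitosis and G2/M genes (green) and for all 27305 promoters (grey), with TTTGAA on the gene's strand at the left and CCAAT on either strand at the right. TTTGAA reaches 41.5 matches per 100 promoters in the 50 bases before the start, against 1.31 over all promoters, and CCAAT reaches 87.8 between -100 and -50, against 15.0.

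The summed level of the 48 genes was highest in 786-O and lowest in A498 among groups with a tight spread. It was 7844, 7881 and 7843 CPM in the 3 libraries of 786-O, 6084, 4350 and 6021 in resistant 786-O, 5123, 5171 and 5066 in A498, and 6614, 6471 and 6535 in resistant A498. The resistant A498 libraries lay above all A498 libraries and below all 786-O libraries, and the resistant 786-O libraries lay below all 786-O libraries, with replicate 2 lowest of all 12. In RNA from bulk cells, a smaller share of cells in G2 or mitosis and less RNA per cell cannot be told apart. The 30 G1/S genes gave a different picture, with 4008 to 4093 CPM in 786-O, 3089 to 3159 in A498, 2840 to 3001 in resistant A498 and 2521, 2905 and 2523 in resistant 786-O. The ratio of the mitotic to the G1/S sum was 1.92 to 1.97 in 786-O, 1.64 to 1.65 in A498 and 2.20 to 2.28 in resistant A498. In resistant 786-O it was 2.41 and 2.39 in replicates 1 and 3 and 1.50 in replicate 2.

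**Figure D2:**
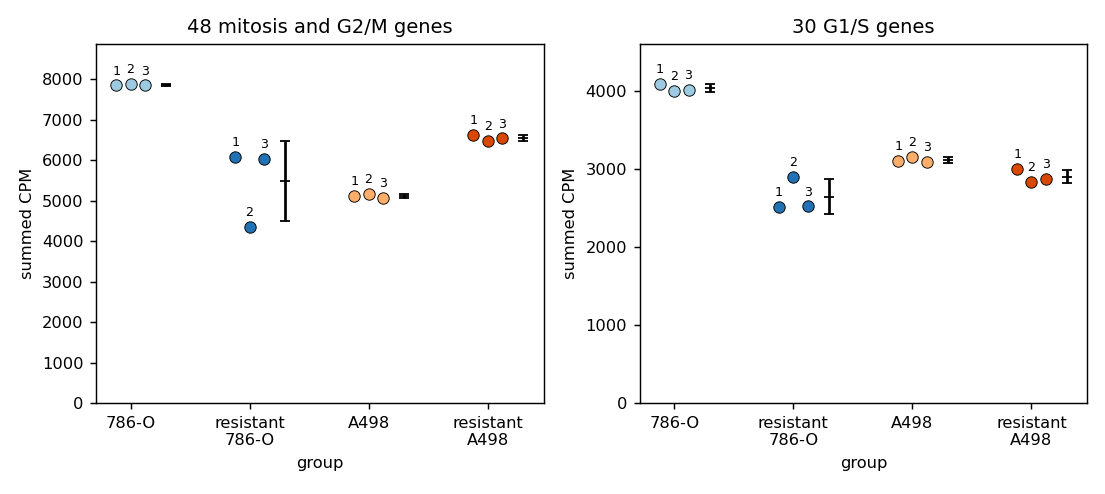
Summed CPM of the 48 mitosis and G2/M genes (left) and of 30 G1/S genes (right) in each library, with replicate numbers above the points and the mean ± SD of 3 libraries beside them. Replicate 2 of resistant 786-O is the lowest point at the left, at 4350, and the highest of its group at the right, at 2905.

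Of the 48 genes, 34 had their highest group mean in 786-O, 10 in resistant A498, 2 in resistant 786-O and 2 in A498. The lowest group mean was in A498 for 30 genes, in resistant 786-O for 15, in resistant A498 for 3 and in 786-O for none.

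**Figure D3:**
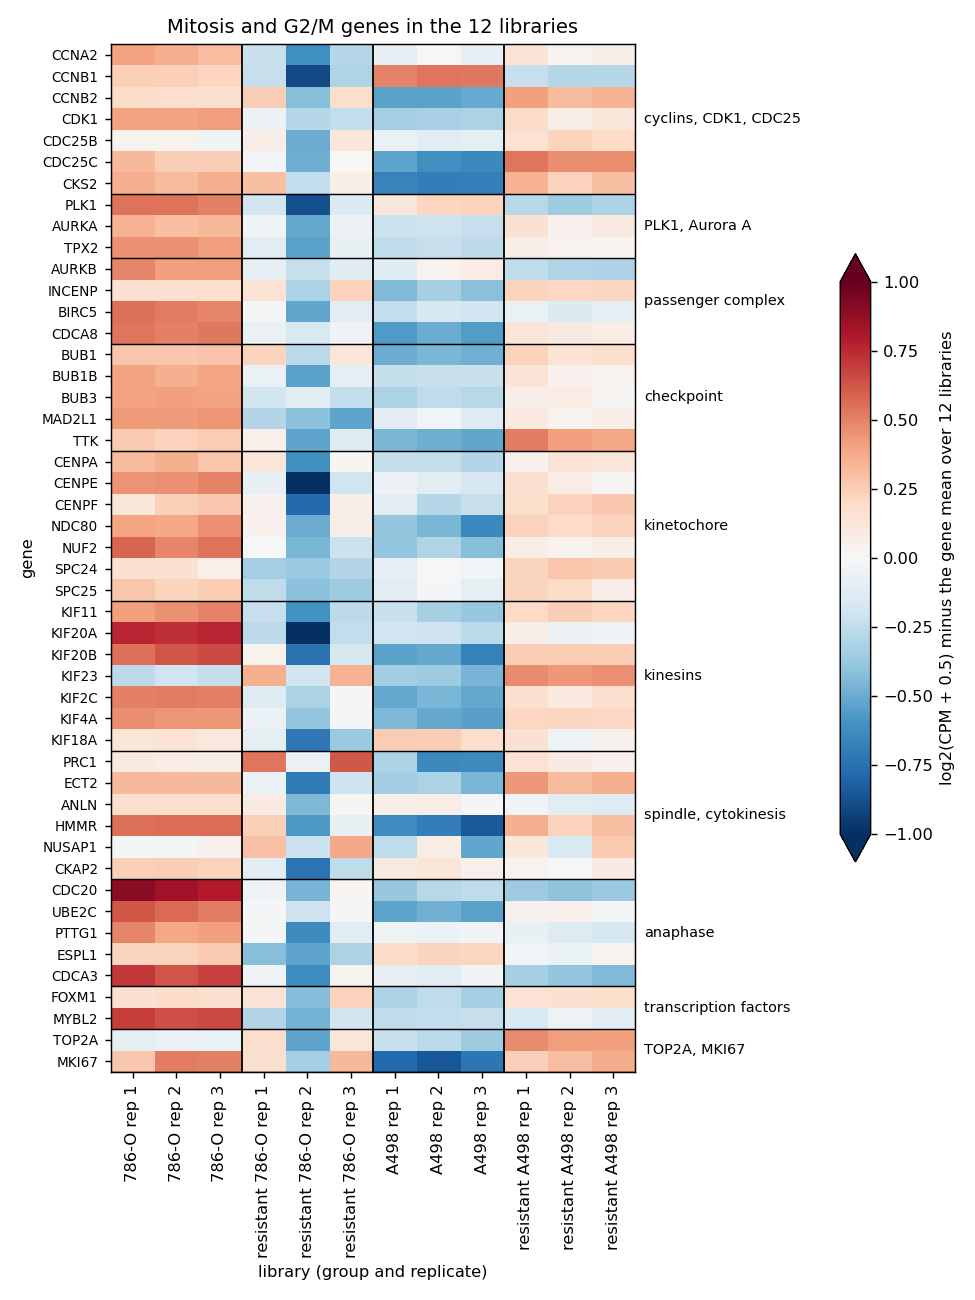
Level of each gene in the 12 libraries, as log2(CPM + 0.5) minus the gene's mean over all libraries, with genes in rows by role and libraries in columns by group. Colours end at 1 and -1, so values beyond are drawn as the end colour. The 786-O columns are red for most genes, the A498 columns blue for most, with CCNB1 as the clearest exception, and replicate 2 of resistant 786-O is darker blue than its 2 partners.

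In resistant over parental A498, 33 of the 48 genes were called higher (68.8%) and 5 lower (10.4%) by edgeR's quasi-likelihood test at an adjusted p under 0.05. Over all 19929 genes tested, 36.3% were called higher and 36.4% lower. The median log2 fold change was 0.39, against -0.0041 over all genes, and the range was -0.79 to 1.12. Called changes exceeded 1 in size in 3 of the 48 genes and in 6137 of the 19929 tested. Such large changes were thus rarer among the 48. The libraries of the 2 groups did not overlap for 37 genes that were higher and 8 that were lower, against 39.4% and 39.1% of all genes. Against 786-O the resistant A498 libraries gave another direction, with 3 genes called higher and 26 lower (31.6% and 32.1% of all genes), and a median of -0.25. Without replicate 2 of resistant 786-O, whose spread enters the shared fit, 37 genes were called higher and 7 lower over A498, and 7 higher and 32 lower over 786-O.

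Between resistant and parental 786-O, 40 of the 48 genes were called lower (83.3%) and 1 higher (2.08%). Over all genes tested, 33.5% were called lower and 35.0% higher. The median log2 fold change was -0.60, against 0.033 over all genes, and the range was -1.23 to 0.43. A called change exceeded 1 in size in 1 of the 48 genes and in 4382 of the 19929 tested, so here too such changes were rarer. The libraries did not overlap for 39 genes that were lower and 1 that was higher, against 34.4% and 34.5% of all genes. Without replicate 2 of resistant 786-O, 40 genes were called lower and 3 higher, and the median was -0.48. CCNB2, CDC25B, FOXM1 and INCENP, not called in either fit, then turned from slightly negative to slightly positive.

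Fold changes also followed the GC content and exonic length of genes, and removing that trend in each library changed calls of single genes in both comparisons. Over A498, 29 of the 48 genes were then called higher and 4 lower in resistant A498 (35.7% and 37.3% of all genes tested), with a median of 0.30. In resistant 786-O, 34 were called lower and 3 higher, which were KIF23, PRC1 and TOP2A (32.4% and 34.9% of all genes), with a median of -0.41. The genes whose call ended are named with their groups, and what the trend reflects was not tested.

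The change in resistant over parental A498 and that in resistant over parental 786-O differed for 42 of the 48 genes, by a test of the difference itself, and in each the change was the more positive one in resistant A498. Over all genes tested, 33.9% were called in that direction and 34.4% in the other. The median difference was 0.90 on the log2 scale. Of the called differences, 19 exceeded 1 in size, and 6998 did among all 19929 genes tested. Without replicate 2 of resistant 786-O the median was 0.78, with 43 called higher and 1 lower. In 26 genes the call was higher in resistant A498 and lower in resistant 786-O, and in 5 genes (CCNB1, PLK1, AURKB, CDCA3 and ESPL1) it was lower in both. With the GC and length trend removed, CCNB1 was the 1 of these 5 that was still called lower in resistant A498, and PLK1, AURKB, CDCA3 and ESPL1 were at -0.21, -0.040, -0.22 and -0.028 (adjusted p from 0.13 to 0.59). KIF23 was called higher in both, 6 genes passed the test in resistant A498 and not in resistant 786-O, 9 in resistant 786-O and not in resistant A498, and NUSAP1 in neither. The 6 genes whose changes did not differ by this test were ANLN, KIF18A, CCNB1, NUSAP1, PLK1 and PRC1. PLK1 passed when any 1 library of resistant 786-O was left out (0.20 to 0.53) and KIF18A without replicate 1 of resistant 786-O (0.50), whereas CDC25B (0.37) did not pass without any 1 library of 786-O, A498 or resistant A498 (0.36 to 0.40). With 786-O as the reference of both resistant groups, which then share their control libraries, 26 genes were called lower in both, 13 in resistant 786-O and not in resistant A498, and KIF23 was higher in both. Pairs of calls were not counted over all genes. The counts of genes called in both comparisons, or in 1 of them, thus have no share of all genes to be read against.

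**Figure D4:**
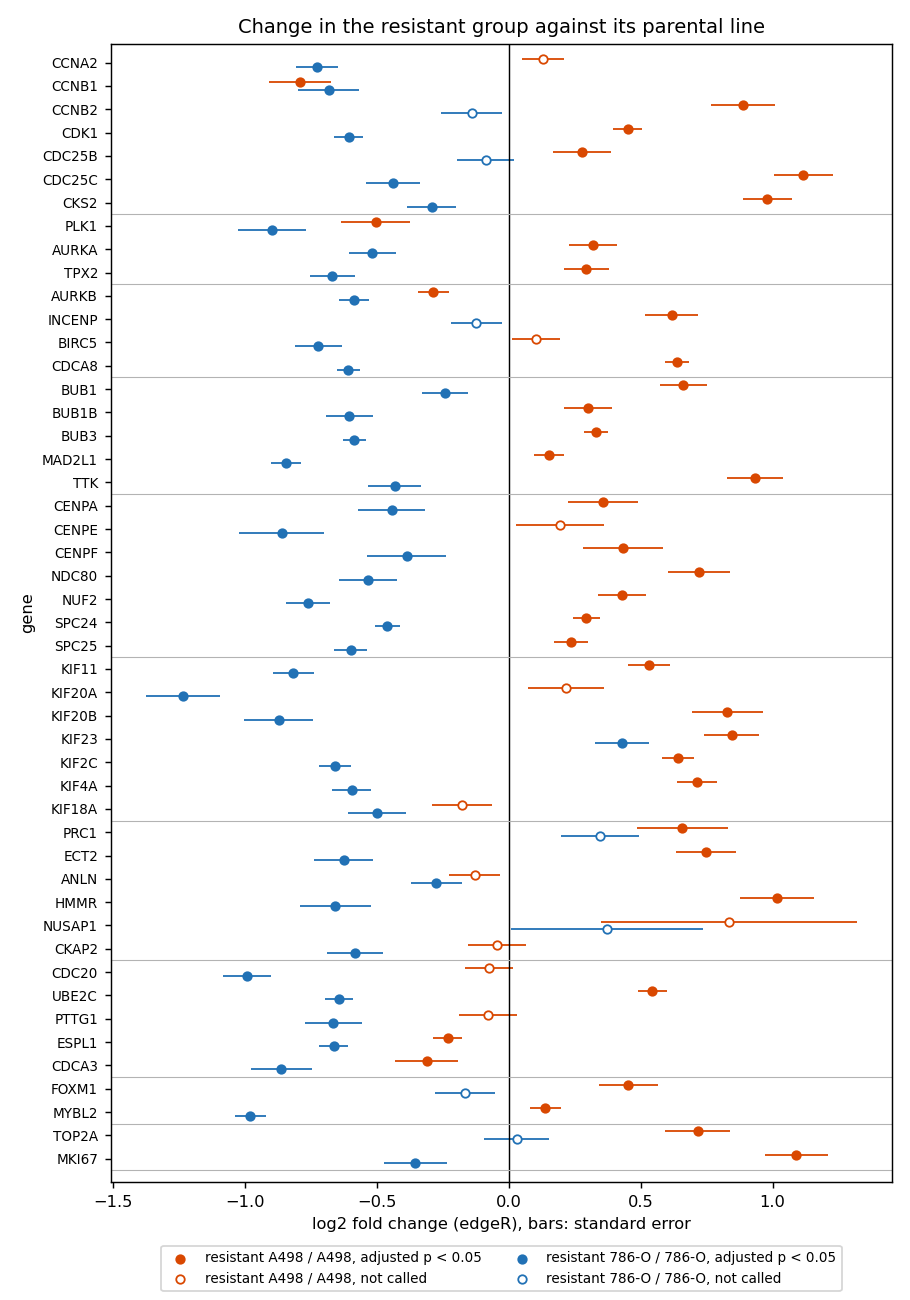
Log2 fold change with its standard error for each gene, resistant over parental A498 in orange and resistant over parental 786-O in blue, with filled points for an adjusted p under 0.05. Most orange points lie to the right of 0 and most blue points to the left, with KIF23 to the right in both and CCNB1, PLK1, AURKB, CDCA3 and ESPL1 to the left in both.

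The 7 genes that encode cyclins, CDK1 and its activators included both the largest rise and the largest fall of the resistant A498 comparison. CDC25C (chromosome 5, 138285269 to 138338355), a phosphatase that activates CDK1, was at 11.1, 10.5 and 10.2 CPM in replicates 1 to 3 of A498 and 23.8, 22.6 and 22.6 in resistant A498. In 786-O it was at 20.5, 19.3 and 19.4, and in resistant 786-O at 16.0, 11.4 and 16.3. The resistant A498 libraries lay above all other libraries. On the log2 scale the change was 1.12 ± 0.11 (SE, adjusted p = 2.8e-07) over A498, 0.22 ± 0.10 (SE, adjusted p = 0.074) over 786-O and -0.44 ± 0.10 (SE, adjusted p = 0.0016) for resistant over parental 786-O, and the difference of the 2 changes was 1.55 ± 0.15 (SE, adjusted p = 2.9e-07). CCNB1 (chromosome 5, 69167135 to 69178245), the main partner of CDK1 in mitosis, went the other way. It was at 232, 237 and 236 CPM in A498, 139, 134 and 134 in resistant A498, 193, 194 and 190.2 in 786-O and 139, 87.4 and 133 in resistant 786-O. It was highest in A498, and neither resistant group overlapped with its parental group. The fall was of similar size in both comparisons, at -0.79 ± 0.12 (SE, adjusted p = 2e-05) for resistant A498 and -0.68 ± 0.12 (SE, adjusted p = 9.7e-05) for resistant 786-O, and for resistant A498 over 786-O the value was -0.50 ± 0.12 (SE, adjusted p = 0.0015). Its difference of the changes was -0.11 ± 0.16 (SE, adjusted p = 0.57). Without replicate 2 of resistant 786-O the change in resistant 786-O was -0.50 ± 0.038 (SE, adjusted p = 6.4e-14), and the difference passed the test at -0.28.

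CDK1 (chromosome 10, 60778331 to 60794852), the kinase of mitotic entry, was at 88.0, 89.0 and 89.2 CPM in A498 and 126, 116 and 121 in resistant A498. It was at 148, 147 and 149 in 786-O and 107, 91.4 and 93.8 in resistant 786-O. The resistant A498 libraries lay between those of the parental lines, and the resistant 786-O libraries near those of A498. Its log2 fold change was 0.45 ± 0.056 (SE, adjusted p = 3.4e-06) in resistant over parental A498, -0.29 ± 0.055 (SE, adjusted p = 0.00032) over 786-O, and -0.61 ± 0.055 (SE, adjusted p = 1.6e-07) in resistant 786-O, where it was -0.17 (adjusted p = 0.0080) with the trend of fold change on GC content and gene length removed. CKS2, a small subunit bound by CDK1, rose by 0.98 in resistant over parental A498 and fell in resistant 786-O (-0.29). CCNB2 rose by 0.89 and CDC25B by 0.28 in resistant A498, while in resistant 786-O their values of -0.14 and -0.086 did not pass the test and were 0.041 and 0.081 without replicate 2. The CDC25B rise did not pass without any 1 library of A498 or without replicate 2 of resistant A498 (0.27 to 0.30). CCNA2 (cyclin A2) fell in resistant 786-O (-0.73), and its value in resistant A498 was 0.13 (adjusted p = 0.16). Over 786-O, CCNA2 was lower in resistant A498 as well (-0.29), whereas CKS2, CCNB2 and CDC25B were at -0.054, 0.19 and 0.18 and did not pass. Without replicate 2, CDC25C, CDK1 and CCNA2 stayed lower in resistant 786-O (-0.29, -0.56 and -0.62), and the fall of CKS2 was -0.16. When the GC and length trend was removed, the CKS2 fall ended (-0.047, adjusted p = 0.65), CDC25B was at 0.63 over A498 and was called lower in resistant 786-O (-0.30, adjusted p = 0.032), and the CDK1 rise over A498 was 0.24.

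PLK1 (chromosome 16, 23677656 to 23690367), the Polo-like kinase that drives centrosome maturation and mitotic entry, was lower in both resistant groups. It was at 302, 302 and 293 CPM in 786-O and 182, 112 and 188 in resistant 786-O, and at 224, 241 and 242 in A498 and 170.2, 161 and 167 in resistant A498. The resistant and parental libraries did not overlap in either line. By edgeR, the log2 fold change was -0.90 ± 0.13 (SE, adjusted p = 2.1e-05) in resistant 786-O, -0.70 ± 0.040 (SE, adjusted p = 3.5e-17) without replicate 2, and -0.50 ± 0.13 (SE, adjusted p = 0.0029) in resistant A498. After removal of the GC and length trend, the fall in resistant A498 was -0.21 (adjusted p = 0.17) and no longer passed. AURKA (chromosome 20, 56369389 to 56392337), the Aurora kinase of the spindle poles, was at 137, 138 and 135 CPM in A498, 177, 164 and 169.8 in resistant A498, 202, 196 and 200.4 in 786-O and 154, 111 and 153 in resistant 786-O. It rose in resistant over parental A498, with a log2 fold change of 0.32 ± 0.091 (SE, adjusted p = 0.0055), and was lower than in 786-O, at -0.23 ± 0.090 (SE, adjusted p = 0.038). In resistant 786-O it fell, at -0.52 ± 0.089 (SE, adjusted p = 0.00012). TPX2, which activates AURKA on the spindle, took the same directions (0.29 in resistant over parental A498 and -0.67 in resistant 786-O). Over 786-O, PLK1 and TPX2 were lower in resistant A498 (-0.85 and -0.40), so that all 3 genes were lower there. Without replicate 2, AURKA and TPX2 stayed lower in resistant 786-O (-0.38 and -0.54).

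The chromosomal passenger complex corrects faulty attachments of kinetochores, and its 4 genes did not move as 1 block. AURKB (chromosome 17, 8204733 to 8210600), its kinase, was at 76.8, 85.6 and 88.3 CPM in A498, 70.0, 67.8 and 67.6 in resistant A498, 118, 112 and 112 in 786-O and 79.0, 71.1 and 77.1 in resistant 786-O. Each resistant group lay below its parental group, and replicate 1 of A498 alone fell within the range of resistant 786-O. As a log2 fold change, the value was -0.29 ± 0.059 (SE, adjusted p = 0.00044) in resistant over parental A498 and -0.59 ± 0.057 (SE, adjusted p = 3.2e-07) in resistant 786-O, and the former became -0.040 (adjusted p = 0.55) with the GC and length trend removed. CDCA8 (borealin) and INCENP, the scaffold of the complex, rose in resistant A498 (0.64 and 0.62). In resistant 786-O, CDCA8 fell (-0.61), and INCENP was at -0.12 with an adjusted p of 0.27. BIRC5 (survivin) fell in resistant 786-O (-0.72) and was at 0.10 in resistant A498 (adjusted p = 0.32). Over 786-O, AURKB, CDCA8 and BIRC5 were lower in resistant A498 (-0.73, -0.43 and -0.62), and INCENP was at 0.055 (adjusted p = 0.65). Without replicate 2, the same 3 genes were called lower in resistant 786-O (-0.55, -0.58 and -0.58) and INCENP was at 0.023. When the GC and length trend was removed, INCENP was at 0.95 over A498 and was called lower in resistant 786-O (-0.33, adjusted p = 0.0086), and BIRC5 was called higher over A498 (0.25, adjusted p = 0.036).

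All 5 genes of the spindle assembly checkpoint were called higher in resistant over parental A498 and all 5 lower in resistant 786-O, where 36.3% and 33.5% of all genes tested were. With the GC and length trend removed, 2 of the 5 were still higher (TTK and BUB1) and 3 still lower (BUB1B, BUB3 and MAD2L1). BUB3 (chromosome 10, 123154402 to 123170467), which brings checkpoint proteins to the kinetochore, was at 126, 132 and 129 CPM in A498, 164, 166 and 158 in resistant A498, 208, 209.5 and 208 in 786-O and 138, 146 and 133 in resistant 786-O. No 2 of the 4 groups overlapped. The log2 fold change was 0.33 ± 0.045 (SE, adjusted p = 7.9e-06) in resistant over parental A498, -0.36 ± 0.044 (SE, adjusted p = 4.5e-06) over 786-O and -0.58 ± 0.044 (SE, adjusted p = 2.1e-08) in resistant 786-O. After removal of the GC and length trend the rise was 0.064 (adjusted p = 0.20). TTK, the kinase at the head of the checkpoint, rose most (0.93), followed by BUB1 (0.66), BUB1B (0.30) and MAD2L1 (0.15), which binds CDC20. The order differed in resistant 786-O, with the largest fall in MAD2L1 (-0.84), then BUB1B (-0.60), TTK (-0.43) and BUB1 (-0.24). When the GC and length trend was removed, BUB1B and MAD2L1 were at 0.15 and -0.086 over A498 (adjusted p = 0.18 and 0.098), TTK and BUB1 at -0.17 and -0.066 in resistant 786-O (adjusted p = 0.17 and 0.51), and the MAD2L1 fall there was -0.50. Without replicate 2 all 5 stayed lower, with BUB1 at -0.11, TTK at -0.29, BUB1B at -0.47, BUB3 at -0.62 and MAD2L1 at -0.84. Over 786-O, BUB1B and MAD2L1 were lower in resistant A498 (-0.31 and -0.37) like BUB3, and TTK and BUB1 were at 0.19 and -0.10 and did not pass. The MAD2L1 rise did not pass without replicate 1 or 3 of A498 (0.15 and 0.13), and the BUB1 fall did not without replicate 3 of 786-O (-0.24, adjusted p = 0.053).

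Of the 7 kinetochore genes, all were called lower in resistant 786-O and 6 were called higher in resistant over parental A498, against 33.5% and 36.3% of all genes tested. With the GC and length trend removed, 5 were still lower and 3 still higher (NDC80, NUF2 and SPC24). CENPE, the kinetochore motor, fell most in resistant 786-O (-0.86) and was the 1 not called in resistant A498 (0.20, adjusted p = 0.3). The 4 subunits of the NDC80 complex, which grips the microtubule, changed by -0.76 (NUF2), -0.60 (SPC25), -0.53 (NDC80) and -0.46 (SPC24) in resistant 786-O. In resistant over parental A498 they rose by 0.72 (NDC80), 0.43 (NUF2), 0.29 (SPC24) and 0.24 (SPC25). NDC80 and NUF2 bind each other at the outer end of the complex, and SPC24 and SPC25 form its inner end. After removal of the GC and length trend, the order changed, with NDC80 at 0.53, SPC24 at 0.48, NUF2 at 0.23 and SPC25 at 0.012 over A498, of which SPC25 did not pass (adjusted p = 0.87). In resistant 786-O, NDC80 then lost its call (-0.21, adjusted p = 0.14), and NUF2, SPC25 and CENPE were at -0.41, -0.32 and -0.46. CENPA, the histone variant that marks the centromere, and CENPF, a large kinetochore-associated protein, changed by 0.36 and 0.43 in resistant over parental A498 and by -0.44 and -0.39 in resistant 786-O. CENPF lost both calls with the GC and length trend removed (0.12 and -0.26, adjusted p = 0.45 and 0.12), and CENPA that over A498 (0.30, adjusted p = 0.074). Without replicate 2, CENPA was at -0.25 and CENPF at -0.16 in resistant 786-O, CENPE at -0.61, and the subunits of the NDC80 complex lay between -0.65 (NUF2) and -0.37 (NDC80), all still called lower. The rises of CENPA (0.37 and 0.34) and CENPF (0.40 and 0.42) did not pass without replicate 1 or 3 and 2 or 3 of A498, and the CENPF fall did not without replicate 2 or 3 of 786-O (-0.38 and -0.36). Against 786-O, 1 kinetochore gene was called higher in resistant A498 (SPC24, 0.14) and 2 lower (NUF2, -0.49, and CENPE, -0.39). The other 4 were between -0.22 (CENPA) and 0.016 (CENPF).

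The kinesins held the largest fall of all 48 genes in resistant 786-O and the only called rise. KIF20A (chromosome 5, 138178719 to 138187723), a motor of the central spindle and of cytokinesis, was at 139.9, 137 and 139.8 CPM in 786-O and 68.2, 39.6 and 69.3 in resistant 786-O. It was at 71.4, 70.9 and 68.2 in A498 and 85.4, 78.9 and 80.2 in resistant A498. Each 786-O library stood well above every other library. On the log2 scale the change was -1.23 ± 0.14 (SE, adjusted p = 1.8e-06) in resistant 786-O, -1.02 ± 0.042 (SE, adjusted p = 3e-21) without replicate 2, -0.77 ± 0.14 (SE, adjusted p = 0.00021) in resistant A498 over 786-O and 0.22 ± 0.14 (SE, adjusted p = 0.19) over A498. KIF20B (chromosome 10, 89701590 to 89774939), its relative, had the largest difference of the changes. It was at 97.0, 103 and 105 CPM in 786-O, 67.8, 39.2 and 59.2 in resistant 786-O, 45.5, 46.2 and 41.1 in A498 and 78.3, 79.0 and 78.6 in resistant A498. No library of a resistant group overlapped with its parental group. The changes were 0.83 ± 0.14 (SE, adjusted p = 5.6e-05) in resistant over parental A498 and -0.87 ± 0.13 (SE, adjusted p = 2.9e-05) in resistant 786-O, which differed by 1.70 ± 0.19 (SE, adjusted p = 1.1e-06), whereas resistant A498 over 786-O was at -0.37 ± 0.13 (SE, adjusted p = 0.023). Without replicate 2 the fall was -0.68, and with the GC and length trend removed the changes were 0.54 and -0.37, both called.

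KIF23 (chromosome 15, 69414246 to 69448427), the motor subunit of centralspindlin, which organizes the midzone before the cell divides, was at 95.9, 99.9 and 97.3 CPM in 786-O and 147, 101 and 147 in resistant 786-O. It was at 90.1, 89.8 and 83.4 in A498 and 159, 156 and 158 in resistant A498. Both resistant groups lay above both parental lines in every library, although replicate 2 of resistant 786-O exceeded the highest 786-O library by little. Its log2 fold change was 0.43 ± 0.10 (SE, adjusted p = 0.0018) in resistant 786-O, 0.59 ± 0.039 (SE, adjusted p = 2.1e-15) without replicate 2, 0.85 ± 0.10 (SE, adjusted p = 3.2e-06) in resistant over parental A498 and 0.69 ± 0.10 (SE, adjusted p = 3.2e-05) over 786-O. KIF11 (Eg5, which pushes the spindle poles apart), KIF2C (a microtubule depolymerase) and KIF4A (a chromosome-bound motor) rose by 0.53, 0.64 and 0.71 in resistant over parental A498 and fell in resistant 786-O (-0.81, -0.66 and -0.59). KIF18A, which limits chromosome movement on the metaphase plate, fell in resistant 786-O (-0.50) and was at -0.18 in resistant A498 (adjusted p = 0.18). When the GC and length trend was removed KIF18A changed places, at -0.028, adjusted p = 0.83 in resistant 786-O and -0.40, adjusted p = 0.0047 over A498, and KIF11 was at 0.31 over A498 and -0.52 in resistant 786-O. Without replicate 2, KIF11, KIF2C, KIF4A and KIF18A stayed lower in resistant 786-O (-0.71, -0.58, -0.49 and -0.35). Over 786-O, KIF11, KIF2C and KIF4A were lower in resistant A498 (-0.24, -0.37 and -0.24), and KIF18A was at -0.071 (adjusted p = 0.6).

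Among 6 genes of spindle assembly and cytokinesis, HMMR (chromosome 5, 163460203 to 163491941), a microtubule-binding protein of the spindle poles, had the largest rise over A498 and the largest fall in resistant 786-O. It was at 47.5, 45.3 and 40.8 CPM in A498, 93.7, 86.2 and 90.6 in resistant A498, 107, 108 and 108 in 786-O and 86.7, 49.0 and 69.6 in resistant 786-O. Every resistant A498 library exceeded every A498 library and stayed under every 786-O library. By edgeR, the log2 fold change was 1.02 ± 0.14 (SE, adjusted p = 1e-05) over A498, -0.26 ± 0.13 (SE, adjusted p = 0.11) over 786-O and -0.66 ± 0.13 (SE, adjusted p = 0.00051) in resistant 786-O, where it was -0.47 ± 0.058 (SE, adjusted p = 7.7e-09) without replicate 2 and -0.19 (adjusted p = 0.23) with the GC and length trend removed. ECT2, the exchange factor that activates RhoA at the division plane, rose in resistant over parental A498 (0.75) and fell in resistant 786-O (-0.62). ANLN (anillin), which lines the contractile ring, and CKAP2, a spindle protein, fell in resistant 786-O (-0.27 and -0.58). Their values in resistant over parental A498 were -0.13 and -0.044 (adjusted p = 0.24 and 0.73). With the GC and length trend removed both falls in resistant 786-O ended, with ANLN at 0.00060 (adjusted p = 1.0) and CKAP2 at -0.14 (adjusted p = 0.26), while both were called lower over A498 (-0.37 and -0.27), and ECT2 was at -0.26 in resistant 786-O. Without replicate 2, ECT2, ANLN and CKAP2 were at -0.46, -0.13 and -0.42, all called lower. Over 786-O, ANLN was lower in resistant A498 (-0.26), and ECT2 and CKAP2 were at 0.049 and -0.20 and did not pass.

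PRC1, which bundles microtubules at the midzone, and NUSAP1, a spindle-associated protein, had counts far below the rest. PRC1 (chromosome 15, 90966040 to 90995629) was at 6.89, 6.83 and 6.72 CPM in 786-O, 9.58, 6.16 and 10.2 in resistant 786-O, 5.07, 3.95 and 3.97 in A498 and 7.19, 6.84 and 6.65 in resistant A498. The antisense gene PRC1-AS1 had a mean of 129 CPM over the 12 libraries against 6.67 for PRC1, with which it shares 34.3% of the exonic length of PRC1, and a gene on the same strand, ENSG00000284946, shares 57.6% of it. The PRC1 value is therefore uncertain, since reads in the exonic stretches that these genes share could not be told apart. NUSAP1 (chromosome 15, 41320794 to 41381050) had 3 to 29 counts per library, and was at 0.368, 0.362 and 0.399 CPM in 786-O, 0.572, 0.252 and 0.634 in resistant 786-O, 0.232, 0.418 and 0.110 in A498 and 0.447, 0.287 and 0.548 in resistant A498. Its groups overlapped throughout. The log2 fold change of PRC1 was 0.66 ± 0.17 (SE, adjusted p = 0.0031) in resistant over parental A498 and 0.35 ± 0.15 (SE, adjusted p = 0.051) in resistant 786-O, where it became 0.54 ± 0.088 (SE, adjusted p = 1.9e-06) without replicate 2. For NUSAP1 the values were 0.84 ± 0.48 (SE, adjusted p = 0.13) and 0.37 ± 0.36 (SE, adjusted p = 0.38), and the former was 1.28 (adjusted p = 0.047) without replicate 2 of A498. Over 786-O, PRC1 and NUSAP1 were at 0.018 and 0.20 in resistant A498 and did not pass.

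The 5 genes of anaphase and its proteolysis were called lower in resistant 786-O without exception, and in resistant A498 against 786-O as well, against 33.5% and 32.1% of all genes tested. CDC20 (chromosome 1, 43358981 to 43363203), the activator of the APC/C, was at 469, 451 and 438 CPM in 786-O and 246, 183 and 255 in resistant 786-O. It was at 194, 208 and 212 in A498 and 196, 191 and 195 in resistant A498. The level in 786-O stood far above the other groups, which lay close together. As a log2 fold change, the value was -0.99 ± 0.090 (SE, adjusted p = 1.7e-07) in resistant 786-O, -0.86 ± 0.041 (SE, adjusted p = 2e-19) without replicate 2, -1.22 ± 0.091 (SE, adjusted p = 2.1e-08) in resistant A498 over 786-O and -0.075 ± 0.091 (SE, adjusted p = 0.47) over A498. The last value became 0.22 (adjusted p = 0.045) with the GC and length trend removed. CDCA3 (chromosome 12, 6844793 to 6851292), which helps degrade the mitotic brake WEE1, was at 104, 98.3 and 102 CPM in 786-O, 61.8, 41.1 and 64.5 in resistant 786-O, 59.8, 59.0 and 61.5 in A498 and 50.4, 48.5 and 46.5 in resistant A498. It was again highest in 786-O and lower in each resistant group than in its parental group. The log2 fold change was -0.31 ± 0.12 (SE, adjusted p = 0.029) in resistant over parental A498, -1.07 ± 0.12 (SE, adjusted p = 1.4e-06) over 786-O and -0.86 ± 0.11 (SE, adjusted p = 8.7e-06) in resistant 786-O. The fall over A498 did not pass when any 1 library of A498 or resistant A498 was left out, with values from -0.25 to -0.32. ESPL1 (separase, which cuts cohesin) fell in both (-0.23 and -0.66), and UBE2C, an E2 enzyme of the APC/C, rose in resistant over parental A498 (0.54) and fell in resistant 786-O (-0.64). PTTG1 (securin, the inhibitor of separase) fell in resistant 786-O (-0.66) and was at -0.079 in resistant A498 (adjusted p = 0.53). The falls of CDCA3 (-0.22, adjusted p = 0.13) and ESPL1 (-0.028, adjusted p = 0.59) over A498 ended with the GC and length trend removed. Over 786-O, ESPL1, UBE2C and PTTG1 were at -0.26, -0.54 and -0.56 in resistant A498. Without replicate 2 all 5 genes stayed lower in resistant 786-O, with CDCA3, ESPL1, UBE2C and PTTG1 at -0.69, -0.61, -0.58 and -0.50.

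Of the 2 transcription factors, MYBL2 fell in resistant 786-O and FOXM1 did not pass the test there. MYBL2 (chromosome 20, 43667019 to 43716495), which encodes B-MYB, was at 351, 339 and 343 CPM in 786-O and 177, 156 and 191 in resistant 786-O. It was at 182, 182 and 185 in A498 and 195, 209.5 and 200.2 in resistant A498. As for CDC20, 786-O stood alone at the high end. On the log2 scale the change was -0.98 ± 0.060 (SE, adjusted p = 2e-09) in resistant 786-O, -0.91 ± 0.040 (SE, adjusted p = 2.8e-20) without replicate 2, -0.77 ± 0.060 (SE, adjusted p = 2.9e-08) in resistant A498 over 786-O and 0.14 ± 0.060 (SE, adjusted p = 0.048) over A498. The small rise over A498 lost its call when any 1 library of A498 or 786-O, or replicate 2 of resistant A498, was left out, with values from 0.14 to 0.15, and was 0.51, adjusted p = 1.9e-06 with the GC and length trend removed. FOXM1 (chromosome 12, 2857680 to 2877174) was at 285, 289.5 and 284 CPM in 786-O, 279, 188 and 298 in resistant 786-O, 205, 214 and 202 in A498 and 281, 283 and 287 in resistant A498. The resistant A498 libraries were above all A498 libraries and overlapped with 786-O. In resistant 786-O, replicates 1 and 3 lay on either side of the 786-O range and replicate 2 far below it. Its log2 fold change was 0.45 ± 0.11 (SE, adjusted p = 0.0022) in resistant over parental A498, -0.013 ± 0.11 (SE, adjusted p = 0.93) over 786-O and -0.17 ± 0.11 (SE, adjusted p = 0.2) in resistant 786-O, and the last was 0.0096 ± 0.038 (SE, adjusted p = 0.83) without replicate 2 and -0.27 (adjusted p = 0.038) without replicate 3. After removal of the GC and length trend, FOXM1 was at 0.70 over A498 and was called lower in resistant 786-O (-0.29, adjusted p = 0.038).

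TOP2A and MKI67, in wide use as proliferation markers, rose in resistant over parental A498, and in resistant 786-O MKI67 fell and TOP2A did not pass the test. TOP2A (chromosome 17, 40388525 to 40417896), the topoisomerase that untangles sister chromatids, was at 381, 389 and 388 CPM in 786-O and 459.6, 281 and 441 in resistant 786-O. It was at 348, 337 and 317 in A498 and 563, 542 and 541 in resistant A498, the highest libraries of all. By edgeR, the log2 fold change was 0.72 ± 0.12 (SE, adjusted p = 9.8e-05) over A498, 0.51 ± 0.12 (SE, adjusted p = 0.0022) over 786-O and 0.031 ± 0.12 (SE, adjusted p = 0.84) in resistant 786-O, which became 0.22 ± 0.039 (SE, adjusted p = 6.4e-06) without replicate 2. When the GC and length trend was removed it was 0.46 over A498 and was called higher in resistant 786-O (0.33, adjusted p = 0.028). MKI67 (chromosome 10, 128096659 to 128126423), the Ki-67 protein that coats mitotic chromosomes, was at 487, 575 and 573 CPM in 786-O, 452, 322 and 508 in resistant 786-O, 236, 224 and 244 in A498 and 477, 500.3 and 522 in resistant A498. A498 stood low and the other groups overlapped in part. As a log2 fold change, the value was 1.09 ± 0.12 (SE, adjusted p = 9e-07) in resistant over parental A498, -0.13 ± 0.12 (SE, adjusted p = 0.37) over 786-O and -0.35 ± 0.12 (SE, adjusted p = 0.016) in resistant 786-O. The fall in resistant 786-O was -0.19 ± 0.054 (SE, adjusted p = 0.0023) without replicate 2 of that group, and its call was lost without replicate 2 of 786-O (-0.32, adjusted p = 0.054) or replicate 3 (-0.32, adjusted p = 0.054).

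Replicate 2 of resistant 786-O carried most of the spread of these genes. Among the 46 genes with a mean of 10 CPM or more, the coefficient of variation of the 3 libraries had a median of 18.8% in resistant 786-O, against 1.75% in 786-O, 2.92% in A498 and 2.95% in resistant A498. For all 10085 genes at that level it was 7.87%, 2.70%, 3.78% and 3.20%. In log2(CPM + 0.5), replicate 2 deviated from the mean of replicates 1 and 3 by a median of -0.48 over the 46 genes, and it was the lowest of the 3 libraries in 44 of them. The median over all genes was 0.019, with an SD of 0.29. A deviation under -0.5 was found in 19 of the 46 genes and in 4.37% of all genes at 10 CPM or more.

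CENPE, CENPF and KIF20A deviated most, at -0.91, -0.83 and -0.79, and were at 52.6%, 56.0% and 57.6% of the mean of the other replicates. PLK1 was at -0.72, CENPA at -0.69 and TOP2A at -0.68. At the other end, BUB3 was at 0.11 and MAD2L1 at 0.0019, and SPC24, CDCA8, SPC25, CDK1 and AURKB lay between -0.056 and -0.13. Subunits of 1 complex had unlike deviations, with NDC80 at -0.55 and NUF2 at -0.35 beside SPC25 at -0.10 and SPC24 at -0.056, and BUB1 was at -0.44. The 30 G1/S genes moved in the opposite direction in the same library, with a median deviation of 0.22 and 2 of 30 lowest of the 3. These are values of 1 library, and what set it apart was not tested.

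**Figure D5:**
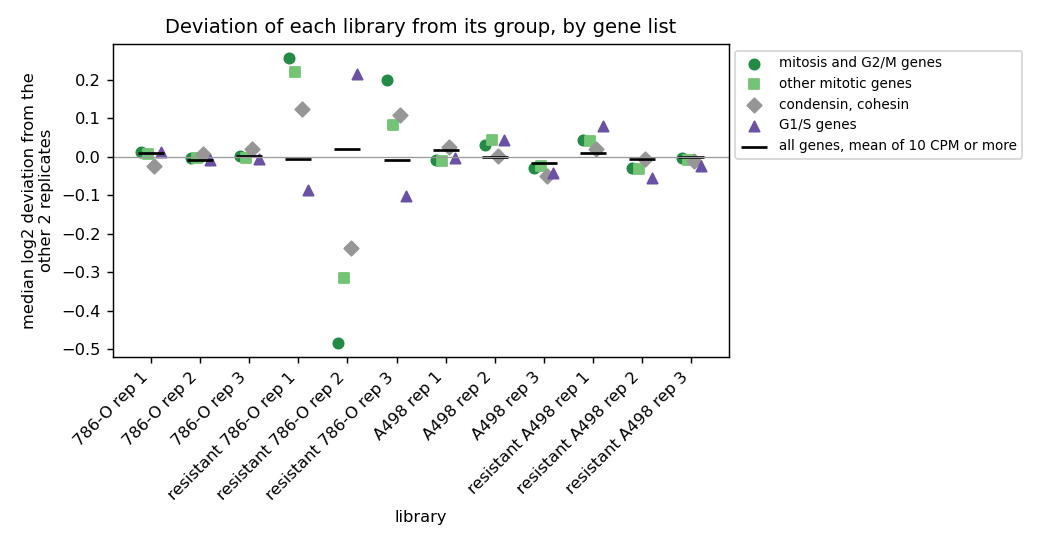
Median log2 deviation of each library from the mean of its 2 partner replicates, for the mitosis and G2/M genes and 3 further lists at 10 CPM or more, with a black bar for all genes. Replicate 2 of resistant 786-O is at -0.48 for the mitosis and G2/M genes and at 0.22 for the G1/S genes, while the libraries of the other groups stay within 0.1 of 0 in all 4 lists.

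Further genes of the same pathway were taken from lists written from general knowledge of the cell cycle, and their counts are read against 36.3% of all genes called higher and 36.4% lower over A498, 31.6% and 32.1% over 786-O, and 35.0% and 33.5% in resistant 786-O. Of 50 other mitotic genes, 19 were higher (38.0%) and 10 lower (20.0%) in resistant over parental A498, with a median of 0.13, so that the share called higher was near that of all genes. Over 786-O, 2 were higher and 27 lower (median -0.25). In resistant 786-O, 1 was higher and 44 lower (88.0%, median -0.48), and without replicate 2 the counts were 1 and 43 (median -0.32). UBE2S, an E2 enzyme of the APC/C, fell most in resistant A498 (-1.52 ± 0.059, SE), and SGO2, which protects centromeric cohesin, fell most in resistant 786-O (-1.18 ± 0.13). MAD1L1, a checkpoint gene, was highest in both (2.51 ± 0.54 and 1.39 ± 0.36) but at a mean of no more than 1.28 CPM in the groups compared.

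Condensin and cohesin, the ring complexes that compact chromosomes and hold sister chromatids together, were counted over 18 genes. Of these, 15 were higher (83.3%) and 1 lower over A498 (median 0.35), led by NCAPD3 (1.18 ± 0.055), and over 786-O 5 were higher and 9 lower (median -0.14). In resistant 786-O, 17 were lower (94.4%) and 1 higher (median -0.56), led by SMC4 (-0.77 ± 0.096), and without replicate 2 the counts were 16 and 1 (median -0.44). With the GC and length trend removed, the medians were 0.14 over A498, with 10 higher, and -0.31 in resistant 786-O, with 15 lower.

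Of 15 APC/C subunits, 5 were higher (33.3%) and 8 lower (53.3%) over A498 (median -0.16), and over 786-O none was higher and 10 were lower (median -0.32). In resistant 786-O, 13 were lower and 2 higher (median -0.34), with CDC27 lowest (-0.98 ± 0.058) and ANAPC2 highest (0.55 ± 0.084), and the counts without replicate 2 were the same (median -0.27). With the GC and length trend removed, 9 were lower (60.0%) and 1 higher in resistant 786-O (median -0.30). Of 11 genes of the DREAM and MuvB complexes, 8 were higher (72.7%) and 1 lower over A498 (median 0.28), and 2 were higher and 5 lower over 786-O (median 0.013). RBL1, a pocket protein of the complex, rose by 1.01 ± 0.047 over A498, and E2F4 fell by 0.62 ± 0.058. In resistant 786-O, 2 were higher and 7 lower (median -0.28), with 4 and 7 without replicate 2 (median -0.26). The medians of this list were 0.16 over A498 and -0.083 in resistant 786-O with the GC and length trend removed.

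Of the 30 G1/S genes, 11 were higher (36.7%) and 13 lower (43.3%) over A498 (median -0.071), shares near those of all genes, with CLSPN at 1.12 ± 0.057 and CCNE1 (cyclin E1) at -1.77 ± 0.13. Over 786-O none was higher and 26 were lower (86.7%, median -0.44). In resistant 786-O none was higher and 28 were lower (93.3%, median -0.50), with RRM2 at -1.22 ± 0.090, and without replicate 2 all 30 were lower (median -0.61).

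The parental lines differed in the same genes. Of the 48, 39 were called higher in 786-O than in A498, against 38.2% of all genes tested, and 1 (CCNB1) was lower, against 36.1%. The median log2 fold change was 0.66, with HMMR (1.28), MKI67 (1.22) and KIF20B (1.20) at the top. ESPL1, KIF18A and CDC25B were close to equal, at 0.025, -0.10 and 0.097. The libraries labelled resistant A498 were nearest to 786-O for 23 genes, to resistant 786-O for 16 and to A498 for 9, by the size of the log2 difference. The median size of that difference was 0.26 from 786-O, 0.29 from resistant 786-O and 0.44 from A498.

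Between the 2 resistant groups, 31 of the 48 genes were called higher in resistant A498 and 1 lower, against 23.0% of all genes tested in each direction, with a median of 0.28. The largest differences were in ECT2 (0.67), CDC25C (0.66) and TTK (0.62), and CDC20 was lower (-0.23). Without replicate 2 of resistant 786-O the median was 0.15, with 31 called higher and 6 lower. The count of higher genes was 18 with the GC and length trend removed, against 19.0% of all genes. It was 17 with the 2 groups fitted alone, where 7252 of 18157 genes were called in either direction. None of the 48 was called lower in either fit.

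Per kilobase of exon, CKS2 was the highest of the 48 genes in every group, at 326 CPM per kb in 786-O, 266 in resistant 786-O, 159 in A498 and 314 in resistant A498. CDC20 (225), UBE2C (197), TPX2 (131) and MYBL2 (124) followed in 786-O. CCNB1 was the third in A498, at 96.5, and the ninth in both resistant groups, at 49.3 in resistant 786-O and 55.8 in resistant A498. CENPE, CDC25C and ESPL1 were the lowest apart from PRC1 and NUSAP1, at 6.45, 5.93 and 7.34 in 786-O.

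Genes with and without TTTGAA on the gene's strand were set side by side. The second class was not free of the element, since CKS2, KIF11 and NDC80 held TTTGAA on the other strand. BUB1 and NDC80 held TTCGAA. The median log2 fold change in resistant 786-O was -0.60 for the 25 genes with TTTGAA on the gene's strand and -0.62 for the 16 without. In resistant over parental A498 the medians were 0.45 and 0.25, and the median deviation of replicate 2 of resistant 786-O was -0.54 and -0.46. KIF23, whose promoter holds TTTGAA and CCAAT like most others, and KIF20A, whose promoter holds CCAAT without TTTGAA or TTCGAA, stood at opposite ends in resistant 786-O. Other variants of the CHR were not searched for.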

How the data were processed

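Stranded polyA RNA-seq libraries were analysed, 3 from each parental line (786-O and A498) and 3 from each Sunitinib-resistant line, with each library assigned to its group by its label. The authors trimmed reads with Trimmomatic 0.36.6, aligned them to GRCh38 with HISAT2 2.1.0 and counted them over GENCODE exons with featureCounts 1.6.3, and deposited raw counts for 45478 genes without normalization (versions per the submitters' processing notes). Total counts ranged from 20042519 to 47972092, and the 48 genes had at least 225 counts in every library except PRC1 (85) and NUSAP1 (3). Precision is given as the SD of 3 libraries, or as the SE from the edgeR model, which uses the libraries of all 4 groups. Antisense genes carried high counts (VIM-AS1 at a mean of 1280 CPM beside VIM at 4450), so strands were not taken as separated, and 15 of the 48 genes share some exonic base with a gene on the other strand.

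In R 4.3.3, edgeR 4.0.16 was used with filterByExpr (19929 genes kept), TMM normalization, 1 quasi-likelihood model of 4 group means over the 12 libraries, and Benjamini-Hochberg adjustment over all genes tested, with calls at an adjusted p under 0.05 and a prior count of 0.125. Each resistant line was set against its parental line, the 2 changes were subtracted from each other, and the other pairs of groups were compared. The SE is the log2 fold change divided by the root of F. On simulated data for resistant over parental 786-O with 19300 genes, 154 of 200 genes changed 2-fold were called, and 14 unchanged ones.

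The 48 genes and the further lists were chosen with earlier results of these data known, so no p was adjusted over a list and no list was tested as a set. Values per library are given for the 3 largest changes in each direction in both main comparisons, the 3 largest differences of the changes and 10 genes chosen by role. From further lists, the called genes with the largest rise and fall could be named. Positions are from GENCODE 44 on the same assembly. Python 3.11.15, pandas 2.3.3 and matplotlib 3.10.9 served for summaries and plots. Alternatives were library size alone, median-of-ratios factors, DESeq2 1.42.0, no filter, at least 10 counts in every library, the 2 groups alone, a prior count of 2, a replicate block, removal of the trend on GC content and length, thinning to the smallest library, a log2 fold change beyond 1, the test named in the study's methods, and each library left out. Leaving out PRC1 and NUSAP1 was chosen after seeing the counts. Protein sequences were not used here.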

Additional observations from a re-analysis of the deposited data

Results flagged for a closer look

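The change in resistant over parental A498 differed from that in resistant over parental 786-O in 42 of the 48 genes, by edgeR's test of the difference of the changes. Each difference below is on the log2 scale, and a positive value means that the change was the more positive one in resistant A498. In the genes that tell the parental lines apart the resistant A498 libraries were near 786-O, and the part of this in the differences was not tested.

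Among cyclins and regulators of CDK1 the differences were 1.55 for CDC25C, 1.27 for CKS2, 1.06 for CDK1, 1.03 for CCNB2, 0.85 for CCNA2 and 0.37 for CDC25B. For the mitotic kinases and the passenger complex they were 0.96 for TPX2, 0.83 for AURKA, 1.25 for CDCA8, 0.82 for BIRC5, 0.74 for INCENP and 0.30 for AURKB. In the spindle checkpoint they were 1.36 for TTK, 1.00 for MAD2L1, 0.92 for BUB3, 0.90 for BUB1B and 0.90 for BUB1.

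Kinetochore genes differed by 1.25 for NDC80, 1.19 for NUF2, 1.05 for CENPE, 0.83 for SPC25, 0.82 for CENPF, 0.80 for CENPA and 0.75 for SPC24. Kinesins differed by 1.70 for KIF20B, 1.45 for KIF20A, 1.35 for KIF11, 1.31 for KIF4A, 1.30 for KIF2C and 0.42 for KIF23. Spindle and cytokinesis genes differed by 1.67 for HMMR, 1.37 for ECT2 and 0.54 for CKAP2. Genes of anaphase differed by 1.19 for UBE2C, 0.92 for CDC20, 0.59 for PTTG1, 0.55 for CDCA3 and 0.43 for ESPL1. The transcription factors MYBL2 and FOXM1 differed by 1.12 and 0.62, and MKI67 and TOP2A by 1.44 and 0.69. With the GC and length trend removed, the differences of KIF23 (0.039), TOP2A (0.13), CKAP2 (-0.12), CENPE (0.33) and CENPF (0.38) lost their calls. By edgeR's test their adjusted p ran from 0.11 (CENPF) to 0.83 (KIF23).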

How the results depend on the processing

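Counts of calls and medians over the 48 genes are given in the order higher, lower and median. Between resistant and parental A498 the median moved from 0.39 to 0.46 with library size alone, 0.44 with no filter, 0.33 with at least 10 counts in every library, 0.30 with the GC and length trend removed, 0.31 with the block as well, and 0.34 without PRC1 and NUSAP1, and 9 genes were lower with the 2 groups alone. The 2-sample test named in the study's methods, run here on raw counts at an unadjusted p under 0.05, gave 8 higher and 0 lower. Of all 19929 genes, it called 6222 in either direction. A log2 fold change beyond 1 left 3 and 0, and 6137 of all genes. Between resistant and parental 786-O, 2 genes were higher with library size alone, median-of-ratios factors, no filter, at least 10 counts or the replicate block, and 3 with the GC and length trend removed, with or without the block. The unadjusted 2-sample test gave 0 higher and 17 lower, and called 8211 of all genes in either direction. A change beyond 1 left 0 and 1, and 4382 of all genes. For the difference of the changes, 38 were higher with the GC and length trend removed. With that trend removed 3 were lower, with or without the block. In the main fit 19 higher were beyond 1 (6998 of all genes in either direction).

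Between 786-O and A498 the median was 0.58 with library size alone, 0.61 with median-of-ratios factors, 0.72 with no filter, 0.62 with at least 10 counts, the 2 groups alone or DESeq2, 0.53 with the GC and length trend removed, with or without the block, and 0.69 without PRC1 and NUSAP1. In the fits of the 2 groups alone and of the GC and length trend, 2 were lower. In the main fit 8 and 0 were beyond 1 (6360 of all genes in either direction). Between resistant A498 and 786-O, library size alone gave 7 higher, 16 lower and a median of -0.095, and moved the median of all genes from 0.0029 to 0.154 (and to 0.176 in resistant over parental 786-O). The median was -0.21 with median-of-ratios factors, at least 10 counts or the 2 groups alone, -0.22 with DESeq2 and -0.18 with the GC and length trend removed, with or without the block. There were 5 higher with no filter or with that trend and the block, and 9 with the 2 groups alone. In the main fit 0 and 2 were beyond 1 (3983 of all genes in either direction). Between the 2 resistant lines, 0 were lower with library size alone, median-of-ratios factors, the 2 groups alone, the block, the GC and length trend removed, thinning or DESeq2, 3 with no filter and 2 with at least 10 counts. There were 17 higher with the 2 groups alone, 18 with the GC and length trend removed and 19 with the block as well. In the main fit 0 and 0 were beyond 1 (1455 of all genes in either direction). The cause of these shifts was not tested.

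With the GC and length trend removed, the sign turned for MAD2L1 (-0.086, and -0.085 with the block) and CDC20 (0.22 and 0.22) in resistant over parental A498, for ANLN (0.00060) in resistant 786-O, and for KIF18A (-0.37 and -0.36), ANLN (-0.37 and -0.36) and CKAP2 (-0.12 and -0.11) in the difference of the changes.

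With each library left out in turn, the ranges were 28 to 37 higher, 4 to 7 lower and a median of 0.37 to 0.43 for resistant over parental A498. They were 1 to 3, 37 to 41 and -0.63 to -0.48 for resistant over parental 786-O, and 41 to 44, 0 to 1 and 0.78 to 0.97 for the difference. For 786-O over A498 they were 38 to 44, 0 to 1 and 0.64 to 0.71, for resistant A498 over 786-O 2 to 7, 20 to 32 and -0.26 to -0.21, and for resistant A498 over resistant 786-O 22 to 35, 0 to 6 and 0.15 to 0.38.

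Replicate numbers did not pair the libraries, since correlations of same-numbered deviations ran from -0.252 to 0.254. The replicate block changed 1 call each in the 3 main contrasts, where PRC1 rose in resistant 786-O, MYBL2 lost its call in resistant A498 and KIF18A gained one in the difference, and left 31 higher and 0 lower between the resistant groups. Over all main and difference results of the 48 genes and all alternatives, 3261 values were compared, and 17 changed sign with neither value called. NUSAP1 has no value with at least 10 counts in every library. It had 3 to 29 counts per library, and the reason for its low counts was not tested.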

Other observations

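Antisense genes beside 2 of the genes described were counted as well. HMMR-AS1 was at a mean of 7.73 CPM in 786-O, 5.98 in resistant 786-O, 3.40 in A498 and 7.04 in resistant A498, where HMMR was at 108, 68.4, 44.5 and 90.2. KIF23-AS1 was at 3.31, 7.03, 6.38 and 6.82 in the same order, where KIF23 was at 97.7, 132, 87.8 and 158. HMMR shares 2.9% of its exonic length with HMMR-AS1, and KIF23 shares 3.5% with KIF23-AS1. As strands were not taken as separated, reads within these shared stretches cannot be told apart. OIP5-AS1, which lies beside NUSAP1 and OIP5, was at 68.0, 66.5, 56.0 and 82.3 CPM in that order, and OIP5 at 19.4, 18.7, 13.8 and 19.9.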
